A study of Mus musculus with 21 samples.

Results

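Immediate early genes are genes that nerve cells switch on within minutes of synaptic activity or other stimuli, and 42 of them were read in the mouse dentate gyrus, the input field of the hippocampus. The 42 were taken from a list of symbols that sets no limit on measured values but was drawn up with earlier results of these data known, out of 18193 genes with a probe set on the array, and the brightest probe set stood for each. A filter that kept the upper 60% of probe sets by mean level left 12499 genes, 36 of them members. The study asked what overexpression of the Nogo receptor NgR (gene Rtn4r), the receptor through which myelin inhibits growing axons, does to the forebrain. NgR came from a transgene that needs the transactivator tTA and that doxycycline keeps silent. Total RNA of dentate gyrus was hybridised to 21 Affymetrix mouse arrays in 7 groups of 3.

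In set 1, bitransgenic mice with tTA had doxycycline removed and drank water, so that the transgene could be expressed. A second bitransgenic group of set 1 stayed on a doxycycline diet, with the transgene silenced, and the third group was monotransgenic, carrying NgR without tTA, and also had doxycycline removed. Experiment 2 compared bitransgenic mice on water that had never met doxycycline with monotransgenic mice on water. Set 3 compared bitransgenic with monotransgenic mice, and the labels give no treatment for it. The labels give no age, strain, founder line or promoter driving tTA, and do not say which transgene the monotransgenic mice of experiment 2 and set 3 carry. None of the 7 groups is non-transgenic.

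Calcium entry through synaptic receptors and channels acts through calmodulin kinases and the ERK pathway on transcription factors that already sit at these genes, mainly CREB and serum response factor. The first genes made encode transcription factors, such as Fos, Egr1 and Npas4, and effectors such as Arc, which act at the synapse itself. Others encode phosphatases and RGS proteins that damp the signal. In the dentate gyrus most granule cells are silent at any moment, and these genes mark the few that have just fired and respond strongly to seizures, handling and exploration.

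CREB binds the cyclic AMP response element (CRE), and serum response factor binds the CArG box, so the promoters of 4 members named below are shown for what they share. The RefSeq promoter table (GRCm38.p6) held windows for 31 of the 42 members, each from 250 bases before to 50 after a gene's start. The sequences are the 250 bases before the start, 5′ to 3′ on the strand of the gene, with matches in capitals: the CRE TGACGTCA, its core TGACG on either strand (which also lies inside the full CRE), and, in Egr2, the CArG box.
Fos, chr12:85473640-85473889, plus strand: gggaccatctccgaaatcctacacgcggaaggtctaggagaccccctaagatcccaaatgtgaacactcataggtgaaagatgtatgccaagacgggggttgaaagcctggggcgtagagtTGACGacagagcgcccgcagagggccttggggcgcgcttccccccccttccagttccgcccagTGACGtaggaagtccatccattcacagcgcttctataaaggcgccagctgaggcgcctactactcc
Npas4, chr19:4989972-4990221, minus strand: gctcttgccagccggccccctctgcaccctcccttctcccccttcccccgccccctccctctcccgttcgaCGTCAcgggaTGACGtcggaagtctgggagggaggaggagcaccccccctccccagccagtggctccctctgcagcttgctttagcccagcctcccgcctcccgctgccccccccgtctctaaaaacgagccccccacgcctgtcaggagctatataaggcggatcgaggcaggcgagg
Egr2, chr10:67537619-67537868, plus strand: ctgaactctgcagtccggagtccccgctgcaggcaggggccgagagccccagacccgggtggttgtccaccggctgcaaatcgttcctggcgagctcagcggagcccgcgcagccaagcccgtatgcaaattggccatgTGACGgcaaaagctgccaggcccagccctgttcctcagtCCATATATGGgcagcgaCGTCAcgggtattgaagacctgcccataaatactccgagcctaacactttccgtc
Scg2, chr1:79440027-79440276, minus strand: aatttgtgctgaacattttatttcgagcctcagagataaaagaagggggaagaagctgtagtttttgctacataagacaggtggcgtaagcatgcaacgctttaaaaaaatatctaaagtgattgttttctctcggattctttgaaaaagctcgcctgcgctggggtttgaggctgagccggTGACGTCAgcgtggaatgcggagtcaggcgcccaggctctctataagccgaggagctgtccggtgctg

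The core was found in 22 of the 31 members with a window, or 70.97%, against 23.05% of all 27025 genes in the table. The full CRE was found in 5 members (Btg2, Dusp1, Maff, Plk2 and Scg2), or 16.13%, against 2.031% of all genes. The CArG box was found in Egr2 and Dusp5, or 6.452%, against 1.806%. The AP-1 site TGAGTCA, searched on both strands, was in none of the 31 windows and in 5.946% of all genes. In Fos cores lay 129 and 66 bases before the start, and in Npas4 179 and 169 bases before it. In the Egr2 window shown, the CArG box, 72 bases before the start, lay between cores at 111 and 55 bases. Egr2 had windows at other starts too, and the window shown was chosen for its number of matches. The Egr2 window chr10:67535249-67535548 held no match, and chr10:67537316-67537615 held a CArG box and no core. In Scg2 the full CRE lay 68 bases before the start. These matches describe letters and not binding. Sites beyond the windows were not searched in any gene, and Egr1 was among the members without a window.

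The transgene was read as the check of the labels: Rtn4r ran from 254 to 1469 in the 9 arrays in which it was meant to be on, and from 63.8 to 185 in the other 12. All 8 genes of a granule cell list passed the filter, which acts on the mean level over the 21 arrays. So did 5 of 5 genes of a list for the hippocampal field CA1 and 4 of 5 for CA3. Of the granule cell genes, C1ql2 ran from 135 to 1234 between arrays. The 6 arrays of experiment 2 differed from the other 15 in Xist, the transcript that silences an X chromosome in females, at 2361 to 4749.6 against 9.59 to 33.7. Their actin 3′ to 5′ log2 ratio, a sign of RNA quality, was 4.84 to 6.45 against 4.17 to 5.12, with overlap. The labels number the samples and do not state that each is a separate animal, so the p-values reflect the spread among samples, which may be technical. In whole tissue, fewer active cells and less RNA per active cell cannot be told apart.

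The members were present at very different brightness, and these intensities cannot be ranked between genes, since probe sets differ in sensitivity. The median over 21 arrays was highest for Rgs2 at 2553, Egr3 at 1904, Jun at 1728, Egr1 at 1088 and Ier5 at 1025. At the dim end of the members past the filter stood Klf2 at 19.9, Fosb at 18.7 and Npas4 at 14.3. The 6 members under the filter are given by level only. Junb, a partner of Fos in the AP-1 factor, ran from 1.24 to 16.9, Egr4 from 2.58 to 43.2, and Sik1, a kinase that restrains CREB coactivators, from 3.22 to 17.7. Trib1, Maff and Dusp5 had medians of 3.93, 2.36 and 3.64. Of the members past the filter, 16 had more than 1 probe set past it, and their probe sets shared a sign in 11 to 16 of the 16, depending on the comparison.

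No member passed an adjusted p of 0.05 in limma in any of the 6 comparisons or in the 3 differences between them. The share of all 12499 genes that passed was itself small, 0.032% in set 1 for doxycycline removal against the diet, 0.072% for removal against monotransgenic and 0.024% for diet against monotransgenic. It was 0.096% in experiment 2, 0% in set 3 and 0.072% for the mean over the 3 sets. The members' differences are therefore given below as values, with the arrays behind them. Their deviations from each gene's mean varied most for Fos, Egr2, Npas4, Scg2 and Rgs4, and the experiment 2 arrays stood out for the first 3 of these.

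**Figure D1:**
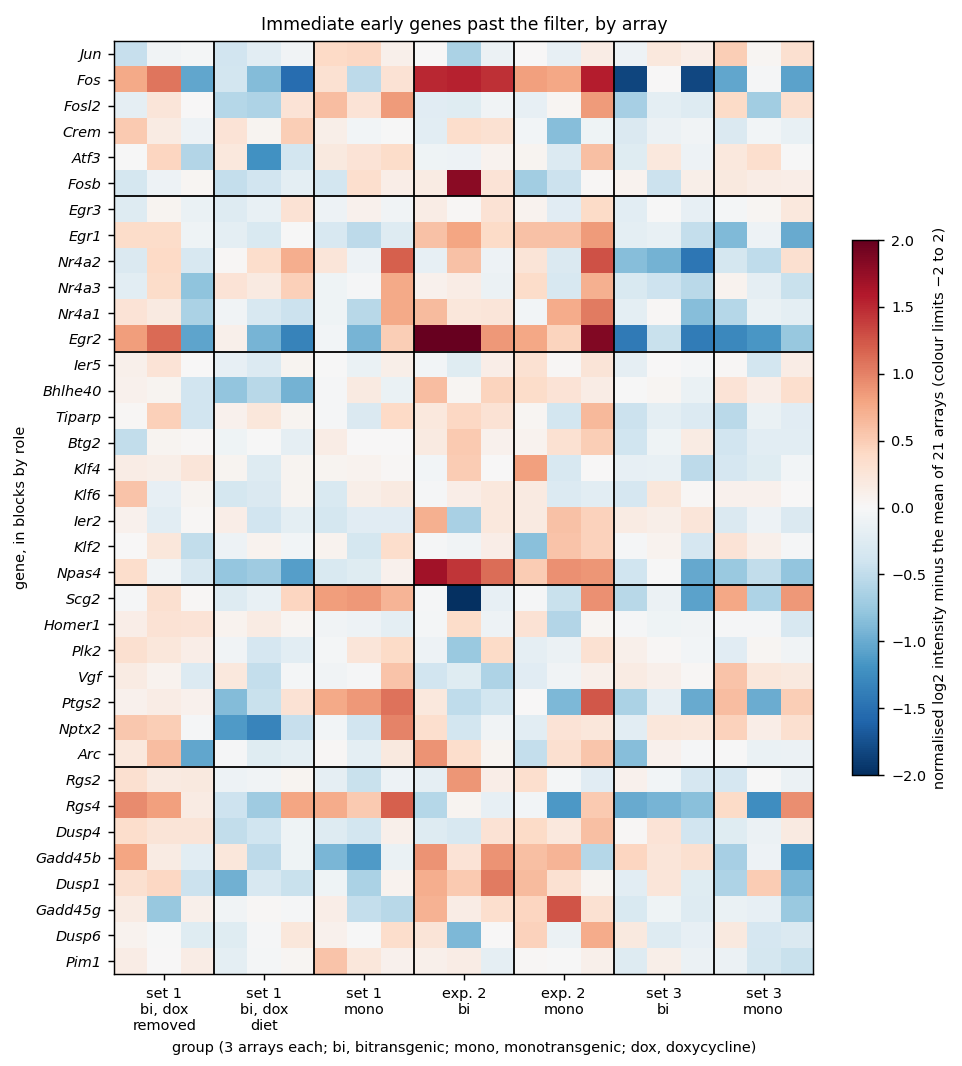
Normalised log2 intensity of each of the 36 members past the filter minus its mean over 21 arrays, by array (columns, 3 per group) and gene (lines of the grid, in 5 blocks by role; values beyond −2 or 2 take the end colour). The 6 arrays of experiment 2 are high for Fos, Egr2 and Npas4, and the 3 diet arrays of set 1 are low for Nptx2, Bhlhe40 and Npas4.

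In set 1, bitransgenic mice with doxycycline removed can be read against bitransgenic mice kept on the diet. These groups differ in doxycycline as well as in the transgene, and this comparison cannot tell the drug and the transgene apart. Of the 36 members, 27 were higher after removal and 9 lower, with a median log2 difference of 0.22, while over all genes 48.1% were higher and the median was −0.01. None passed, 6 had an unadjusted p under 0.05, all higher, while 5.04% of all genes had one. The groups did not overlap for 7 members, all higher after removal (Bhlhe40, Dusp4, Klf4, Npas4, Nptx2, Plk2 and Rgs2), against 16.2% of all genes in either direction. On the deposited intensities, before quantile normalization, Klf4 overlapped. All 7 synaptic effector and secreted members were higher, as were 5 of 6 AP-1 and related members, 6 of 9 other transcription regulators and 6 of 8 signal feedback members. Of the Egr and Nr4a members, 3 of 6 were higher.

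The lowest adjusted p of the members belonged to Nptx2, a secreted pentraxin that gathers AMPA receptors at excitatory synapses. Its intensity was 247, 244 and 165 with doxycycline removed, 71.0, 59.7 and 119 with the diet and 162, 126 and 365 in monotransgenic arrays. The 3 diet arrays lay below all 6 others of the set. The difference from the removed group was 1.30 ± 0.29 (SE), adjusted p = 0.158, and that of diet minus monotransgenic −1.16 ± 0.29 (SE), adjusted p = 0.399. A second, dim probe set of Nptx2 gave 0.14 and −0.13 for these differences, and with the mean of both probe sets the first was 0.72.

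Bhlhe40, a repressor that also acts on the circadian clock, had the same arrangement. The removed arrays stood at 478, 469.6 and 339, the diet arrays at 259, 301 and 228 and the monotransgenic arrays at 439, 521 and 419, again with the diet arrays below all others. Removal minus diet was 0.68 ± 0.16 (SE), adjusted p = 0.183. Diet minus monotransgenic was −0.77 ± 0.16 (SE), adjusted p = 0.219. Npas4, a neuronal transcription factor that responds to calcium and shapes inhibitory input, stood at 27.4, 18.3 and 12.3 with doxycycline removed, 4.87, 6.16 and 0.534 with the diet and 14.3, 13.8 and 22.1 in monotransgenic arrays. The diet arrays were the lowest here too, but all 9 values are dim. The difference of removal minus diet was 0.86 ± 0.24 (SE), adjusted p = 0.383.

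Plk2, a kinase that weakens overactive synapses, stood at 515, 478 and 449 in removed, 387, 321 and 352 in diet and 391, 488 and 546 in monotransgenic arrays, with the diet arrays once more the lowest. Dusp4, a phosphatase that switches off MAP kinases in the nucleus, divided the set in another way. It stood at 275, 259.7 and 259.9 with doxycycline removed, 153, 162 and 203 with the diet and 177, 163 and 237 in monotransgenic arrays. The removed group lay above both other groups, which overlapped each other. Removal was 0.61 log2 units higher than the diet (adjusted p = 0.586) and 0.47 higher than monotransgenic (adjusted p = 0.54). Rgs2, which shortens signalling through Gq-coupled receptors, stood at 3597, 3146 and 3250.5 with doxycycline removed, 2524, 2585 and 2817 with the diet and 2484, 2051 and 2461 in monotransgenic arrays, again with the removed group above both.

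The classical rapid genes overlapped between removal and diet. Fos, the best known marker of recent activity, stood at 679, 847 and 179 with doxycycline removed, 304, 208 and 125 with the diet and 481, 267 and 492 in monotransgenic arrays. The third removed array lay among the diet arrays, and the difference of removal minus diet was 1.18 ± 0.50 (SE), adjusted p = 0.868. Dusp1, a rapid MAP kinase phosphatase, stood at 139, 153 and 78.7 with doxycycline removed and 53.1, 88.0 and 78.0 with the diet, with a difference of 0.68 ± 0.31 (SE), adjusted p = 0.95. The difference was 0.39 for Egr1, 0.22 for Nr4a1, 0.21 for Fosb and 0.08 for Arc.

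**Figure D2:**
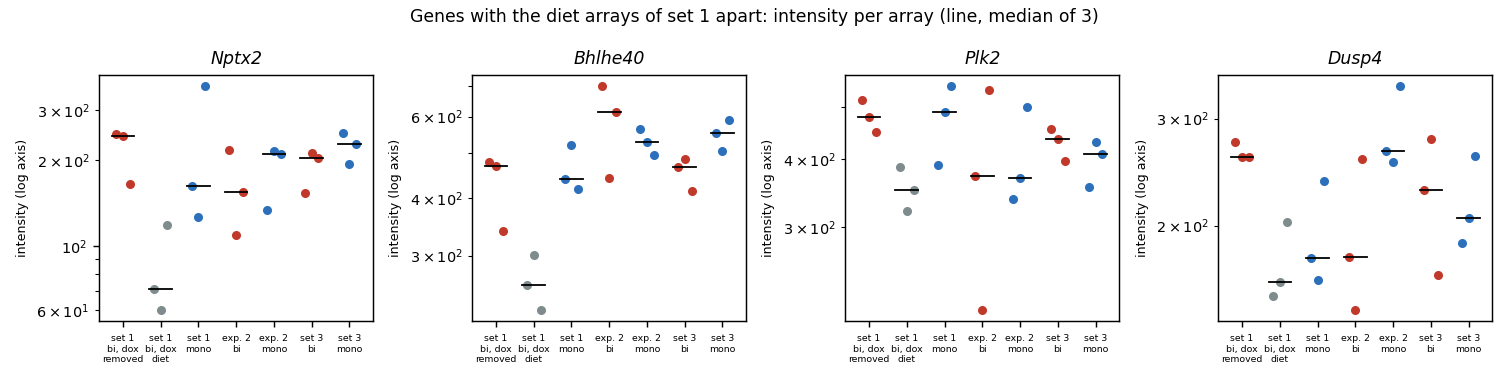
Intensity (log axis) per array of Nptx2, Bhlhe40, Plk2 and Dusp4 in the 7 groups, with the median of each group as a line. In set 1 the diet arrays lie below both other groups for Nptx2 (59.7 to 119), Bhlhe40 and Plk2, and the removed arrays lie above both for Dusp4.

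Diet against monotransgenic mice compares 2 groups with the transgene off, which differ in tTA and in doxycycline. Here 27 of the 36 members were lower on the diet, with a median of −0.18 against −0.00 over all genes. An unadjusted p under 0.05 was found for 8 members, all lower, against 3.85% of all genes. The groups did not overlap for 10 members, against 14.9% of all genes: Homer1 was higher, and Bhlhe40, Btg2, Jun, Npas4, Nptx2, Pim1, Plk2, Ptgs2 and Scg2 were lower. On deposited intensities Btg2 overlapped and Rgs2 stood higher without overlap. This comparison uses the same diet arrays as removal against diet, so the low diet arrays of Nptx2, Bhlhe40, Npas4 and Plk2 are counted in both.

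Beside Bhlhe40 and Nptx2, the members of lowest p were Jun, Fosl2, Npas4 and Ptgs2, and none passed. Ptgs2, the inducible cyclooxygenase, stood at 101, 137 and 239 in diet and 328, 361 and 432 in monotransgenic arrays, with a difference of −1.24 ± 0.43 (SE), adjusted p = 0.896. Fosl2, a Fos relative, differed by −0.88 ± 0.29 (SE), adjusted p = 0.896, Jun by −0.53 ± 0.17 (SE), adjusted p = 0.855 and Npas4 by −0.71 ± 0.24 (SE), adjusted p = 0.896. Fos was 0.94 lower, Fosb 0.39, Dusp1 0.36, Nr4a1 0.31 and Arc 0.16 lower, and Egr1 0.19 higher. For these 6 the adjusted p in limma was 1.0.

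Removal against monotransgenic mice, the groups that differ in tTA but share the removal of doxycycline, divided the members evenly, with 18 higher and 18 lower and a median of −0.03 against −0.01 over all genes. An unadjusted p under 0.05 was found for 5 members higher and 1 lower, against 7.86% of all genes. Groups did not overlap for 10 members, against 22.2% of all genes: Dusp4, Egr1, Homer1, Ier2, Klf4 and Rgs2 were higher and Fosl2, Jun, Ptgs2 and Scg2 lower. Klf4 overlapped on deposited intensities.

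Egr1, a zinc finger factor that rises with synaptic potentiation, had the lowest p. It stood at 1564, 1527 and 1119.9 after removal and 934, 817 and 988 in monotransgenic arrays, without overlap. The diet arrays, at 1007, 951 and 1185, overlapped both. Removal minus monotransgenic was 0.58 ± 0.19 (SE), adjusted p = 0.34. Jun, the partner of Fos in AP-1, stood at 1256, 1641 and 1674 after removal and 2299, 2293 and 1791 in monotransgenic arrays, all removed arrays below, with a difference of −0.50 ± 0.17 (SE), adjusted p = 0.35. Gadd45b, which takes part in removing DNA methylation at activity-regulated genes, differed by 0.97 ± 0.34 (SE), adjusted p = 0.39.

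Rgs2 differed by 0.47 ± 0.20 (adjusted p = 0.543), and Homer1, a scaffold of metabotropic glutamate receptors with a short activity-induced form, by 0.36 ± 0.17 (adjusted p = 0.634). Of the other rapid genes, Dusp1 was 0.32 higher, Fos 0.24 higher and Npas4 0.14 higher. Fosb was 0.17 lower, Nr4a1 0.10 lower and Arc 0.08 lower. Their adjusted p values in limma ran from 0.909 to 0.983.

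Npas4 and Egr1 divided the arrays by experiment, across genotypes. Npas4 ran from 37.5 to 97.2 over the 6 arrays of experiment 2 and from 0.534 to 27.4 over the other 15. Egr1 ran from 1618 to 2262 against 588 to 1564. For both genes every array of experiment 2 lay above every other array, whichever its genotype. Fos ran from 647 to 1241 in experiment 2 against 101 to 847, with 2 removed arrays of set 1 reaching the range. Egr2, a relative of Egr1, stood at 319, 368 and 131 in bitransgenic and 119, 108 and 294 in monotransgenic arrays of experiment 2, and ran from 12.8 to 164 elsewhere.

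A comparison chosen after these values were seen set the monotransgenic arrays of experiment 2 against the mean of those of sets 1 and 3. Egr1 was higher by 1.19 ± 0.17 (SE, 2.28-fold, limma adjusted p = 0.00159). Egr1 stayed past the threshold with each of the 9 monotransgenic arrays left out in turn. Npas4 had a normalised mean log2 of 6.24 in experiment 2 and 4.71 in the other 15 arrays, under the filter limit of 4.90. It entered the genes tested only through the experiment in which it was high, so it had to differ, and its difference of 1.18 is a description with no test. It was the only such member. Past the threshold were 0.112% of all genes higher and 0.208% lower, and the members' median was 0.20 against −0.00. Since the comparison was chosen for these genes, the result for Egr1 is no independent support.

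Gadd45g was 0.98 higher (adjusted p = 0.0775), Egr2 1.64 (adjusted p = 0.128) and Fos 1.40 (adjusted p = 0.164), and none of the 3 passed. Of the other rapid genes Nr4a1 was 0.71 higher (adjusted p = 0.277), Dusp1 0.61 higher (adjusted p = 0.337) and Arc 0.18 higher (adjusted p = 0.849). Fosb went the other way, at −0.47 (adjusted p = 0.502). Experiment 2 also differed from the other sets in Xist. From set 1 it differed in the record of doxycycline. Its bitransgenic mice had never met the drug, and its monotransgenic mice were labelled as on water. For set 3 the labels give no treatment. The Xist difference holds for the whole experiment, and neither difference can be told apart from the experiment. The actin ratio lay above that of all other sets in 3 of the 6 arrays of experiment 2. In others, 2 monotransgenic arrays among them (4.90 and 4.84), it lay within the range of set 1, 4.63 to 5.12. All 6 arrays of experiment 2 (4.84 to 6.45) lay above those of set 3 (4.17 to 4.63). Without the 2 arrays of highest ratio Egr1 was higher by 1.23 (adjusted p = 0.00355). The part of the actin ratio in the differences of experiment 2 from the other sets was not tested.

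**Figure D3:**
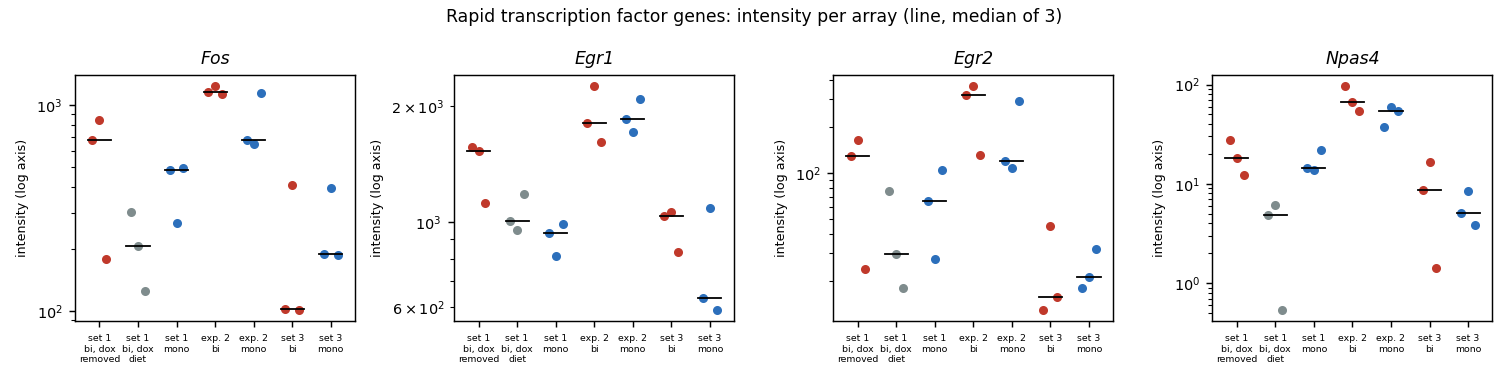
Intensity (log axis) per array of Fos, Egr1, Egr2 and Npas4 in the 7 groups, with the median of each group as a line. For Egr1 and Npas4 all 6 arrays of experiment 2 lie above the other 15, in both genotypes.

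Within experiment 2, bitransgenic minus monotransgenic, 14 of the 36 members were higher and 22 lower, with a median of −0.04 against 0.02 over all genes. An unadjusted p under 0.05 was found for 3 members higher and 2 lower, against 14.4% of all genes. The groups did not overlap for 3 members (Fosb and Npas4 higher, Vgf lower), against 8.69% of all genes. On deposited intensities Npas4 overlapped and Pim1 was lower without overlap.

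Fosb, whose long-lived product accumulates in the dentate gyrus after repeated activity, had the lowest p. It stood at 22.1, 86.6 and 22.9 in bitransgenic and 6.21, 11.8 and 20.3 in monotransgenic arrays. The groups stood apart by a narrow margin, and 1 array, the second bitransgenic, was far above the rest and also had the highest actin ratio of all 21, 6.45. The difference was 1.12 ± 0.32 (SE), adjusted p = 0.159, and without that array it was 0.59. Without the first bitransgenic array it was 1.41 and passed (adjusted p = 0.0351). With a pseudocount of 1 the difference was 1.89 and with 64 it was 0.54, neither past the test.

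Npas4 stood at 97.2, 67.0 and 54.7 in bitransgenic and 37.5, 59.0 and 54.2 in monotransgenic arrays, with a difference of 0.65 ± 0.24 (SE), adjusted p = 0.251. Dusp4 was 0.49 lower (adjusted p = 0.268), where set 1 had it 0.47 higher. Crem, whose short form ICER represses CRE-driven genes, was 0.49 higher (adjusted p = 0.312), and Dusp6, a cytoplasmic ERK phosphatase, 0.58 lower (adjusted p = 0.326).

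Scg2, a secretogranin of dense-core vesicles, stood at 931, 163 and 857 in bitransgenic and 926, 661 and 1771 in monotransgenic arrays. The array of highest actin ratio held its lowest value of all, and the third monotransgenic array its highest of the experiment. The difference was −0.96 ± 0.46 (SE), adjusted p = 0.35, and without the array of highest actin ratio −0.24. Fos was 0.45 higher, Dusp1 0.43 and Arc 0.30 higher, while Nr4a1 was 0.21 and Egr1 0.09 lower, with adjusted p from 0.517 to 0.841.

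In set 3, bitransgenic minus monotransgenic, 14 members were higher and 22 lower, with a median of −0.06 against 0.03 over all genes. An unadjusted p under 0.05 was found for 1 member higher and 1 lower, against 4.19% of all genes, and every adjusted p was 1.0. Groups did not overlap for 6 members (Gadd45b and Ier2 higher, Bhlhe40, Fosb, Nr4a2 and Vgf lower), against 13.5% of all genes, and Fosb overlapped on deposited intensities. Gadd45b stood at 209, 180.0 and 184 in bitransgenic and 89.4, 138 and 53.6 in monotransgenic arrays, a difference of 0.98 ± 0.34. Nr4a2, an orphan nuclear receptor, stood at 147, 136 and 88.0 against 210.1, 188 and 351, a difference of −0.90 ± 0.37.

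The next genes by p were Rgs4, at −0.95 ± 0.46, Egr1, at 0.39 ± 0.19, Scg2, at −0.93 ± 0.46, and Ier2, at 0.41 ± 0.24. Of these only Ier2 stood apart between the groups. Fos was 0.51 lower, at 102, 411 and 101 against 189.9, 397 and 187, with the second array of each group the highest. Fosb was 0.24, Arc 0.17 and Nr4a1 0.04 lower, and Dusp1 0.26 and Npas4 0.19 higher.

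Averaged over the 3 sets, transgene on minus monotransgenic, 18 members were higher and 18 lower, with a median of −0.00 against 0.01 over all genes. An unadjusted p under 0.05 was found for 4 members higher and 6 lower, against 11.8% of all genes. The sign was shared by all 3 sets for 17 members, 6 up and 11 down, against 29.7% of all genes. This average contains the within-set differences given above and is not separate from them. The 6 up were Crem, Dusp1, Gadd45b, Homer1, Npas4 and Rgs2. The 11 down were Atf3, Fosl2, Jun, Klf2, Nr4a1, Nr4a2, Nr4a3, Ptgs2, Rgs4, Scg2 and Vgf. All 3 Nr4a receptors are among them, but the sign of Nr4a1 changed in each set when single arrays were left out. Vgf, a neuropeptide precursor, was −0.17, −0.35 and −0.23 in set 1, experiment 2 and set 3, Nr4a3 −0.43, −0.21 and −0.23, and Atf3, a stress-induced factor, −0.33, −0.17 and −0.22. The 6 members of lowest p were Gadd45b and Egr1, higher, and Jun, Scg2, Nr4a2 and Fosl2, lower.

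Gadd45b came nearest to the threshold of all members in the 6 comparisons within sets and over them, at 0.80 ± 0.20 (SE, 1.75-fold, adjusted p = 0.0888). It stood at 252, 158 and 119 after removal against 69.0, 55.1 and 131 in the monotransgenic arrays of set 1, and at 277, 151 and 269.7 against 206, 242 and 96.8 in experiment 2. Only in set 3 did the groups stand apart on these values. It passed without experiment 2 (0.98, adjusted p = 0.0378) and without the 2 arrays of highest actin ratio (0.93, adjusted p = 0.0277). It also passed with array weights (1.02, adjusted p = 0.00208). Without the first monotransgenic array of experiment 2 it passed at 0.86 (adjusted p = 0.0403). Without the second of set 3 it passed at 0.90 (adjusted p = 0.0165). Excluding 1 or 2 arrays took out the highest monotransgenic value of set 3 or, in experiment 2, the 206, alone or with the bitransgenic 151. Each of these values had narrowed the difference. Gadd45b did not pass with a pseudocount of 1 (adjusted p = 0.0961) or 64 (adjusted p = 0.0883). Nor did it with the mean of probe sets (adjusted p = 0.0626). Without the first or second bitransgenic array of experiment 2 its adjusted p was 0.0856 or 0.063. Its second probe set gave 0.38. The diet arrays, with the transgene off, stood at 172, 94.3 and 132, across the range of the removed arrays.

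Jun was lower in each set, by most in set 1, at −0.50, −0.25 and −0.21, with a mean of −0.32 ± 0.10 (SE), adjusted p = 0.157. Scg2 was −0.70, −0.96 and −0.93, with a mean of −0.86 ± 0.27 (SE), adjusted p = 0.165. Nr4a2 had a mean of −0.57 ± 0.21 (SE), adjusted p = 0.266, and Fosl2 of −0.45 ± 0.17 (SE), adjusted p = 0.268. Egr1 was 0.58, −0.09 and 0.39 in the 3 sets, with a mean of 0.29 ± 0.11 (SE), adjusted p = 0.272. The other rapid genes had means of 0.34 for Dusp1, 0.33 for Npas4, 0.24 for Fosb, 0.06 for Fos, 0.02 for Arc and −0.12 for Nr4a1.

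**Figure D4:**
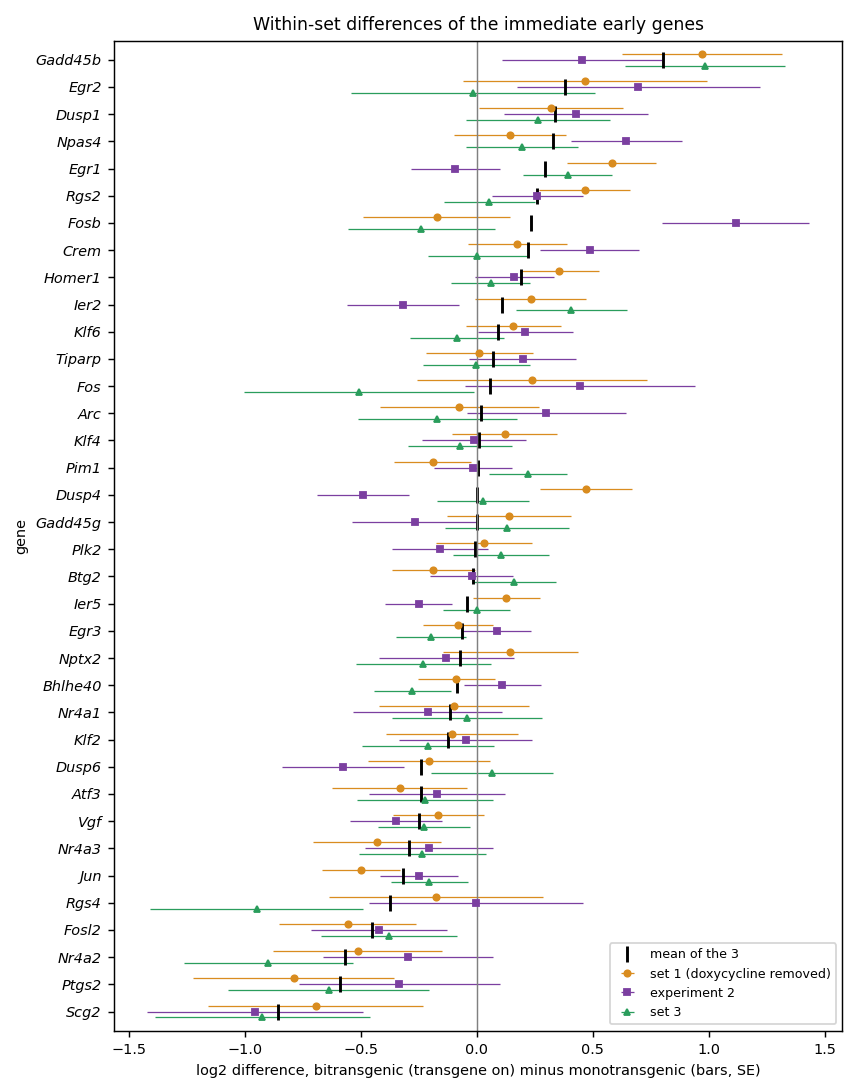
Log2 difference of bitransgenic (transgene on) minus monotransgenic arrays in set 1, experiment 2 and set 3 for the 36 members past the filter, with SE as bars and the mean of the 3 as a black tick, ordered by that mean. Gadd45b lies at the top at 0.80 and Scg2 at the bottom at −0.86, and Fosb lies far to the right in experiment 2 alone, at 1.12; none passed the test.

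Among the monotransgenic arrays, several of these members followed another transcript from array to array. Ogn, an extracellular matrix gene taken as a meningeal marker, stood at 556, 728 and 636 in the monotransgenic arrays of set 1, 153, 79.6 and 525 in those of experiment 2 and 824, 41.2 and 652 in those of set 3. Every bitransgenic array, transgene on or off, lay between 8.54 and 143. So 3 monotransgenic arrays, the first and second of experiment 2 and the second of set 3, stood near or among the bitransgenic arrays in Ogn.

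Scg2 divided the monotransgenic arrays in the same way. It was 926, 661 and 627 in those 3 arrays, and 1715, 1788 and 1508 in set 1, 1771 in the third of experiment 2, and 1599 and 1694 in set 3. The 9 arrays with the transgene on ran from 163 to 1189.9, and the diet arrays stood at 777, 851 and 1289. Ptgs2 was 178, 104 and 92.8 in the 3 arrays of low Ogn, and 328, 361 and 432, 471, 309.7 and 289.9 in the others. Rgs4, a brake on Gi and Gq signalling, was 358, 176 and 164 against 659, 580.1 and 929, 568, 524 and 775. In each of these 3 genes the arrays of low Ogn were the lowest of the 9. This division held among the monotransgenic arrays and not throughout. In the removed arrays of set 1, also low in Ogn, Rgs4 ran from 443 to 788.

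Fosl2 had the same order, with 148, 191 and 111 in the 3 arrays of low Ogn and 279.8, 219.8 and 343, 343, 246 and 242 in the others. Gadd45b had the opposite one, with 206, 242 and 138 against 69.0, 55.1 and 131, 96.8, 89.4 and 53.6. Jun was 1764, 1471 and 1728 against 2299, 2293 and 1791, 1862, 2316 and 2029, the low arrays again the same by a small margin, while the arrays overlapped for Nr4a2. The genes were looked at in this way after their values were seen, and no test was made of it.

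Of the 6 genes of the meningeal list, Ogn and Lum passed the filter and the other 4 did not. Their summed intensity was 37.1 to 51.3 after removal, 44.7 to 49.4 on the diet and 649 to 840.5 in the monotransgenic arrays of set 1. It was 53.0 to 102 against 106 to 558 in experiment 2 and 53.6 to 177 against 62.6 to 919.8 in set 3. Lum alone did not follow Ogn in experiment 2, at 41.8, 25.1 and 30.0 in bitransgenic and 30.2, 26.4 and 32.7 in monotransgenic arrays. The 8 granule cell genes summed to 13594 to 16846, 14762 to 16391 and 17828 to 20972 in set 1, with 7 of 8 lower after removal than in monotransgenic arrays. Their mean log2 deviation from each gene's own mean divided the monotransgenic arrays as Ogn did. It was −0.17 and −0.12 in the first and second of experiment 2 and −0.17 in the second of set 3. In the other monotransgenic arrays it was 0.24 to 0.39. The granule cell sum did not divide them so, at 19929 in the first of experiment 2 and 17777 in the third of set 3. The mean deviation of the CA1 list divided the monotransgenic arrays in the same way. It was −0.19, −0.13 and −0.16 in the arrays of low Ogn and −0.054 to 0.28 in the others. That of the CA3 list did not divide them. The part of any of these lists in the members' differences was not tested.

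**Figure D5:**
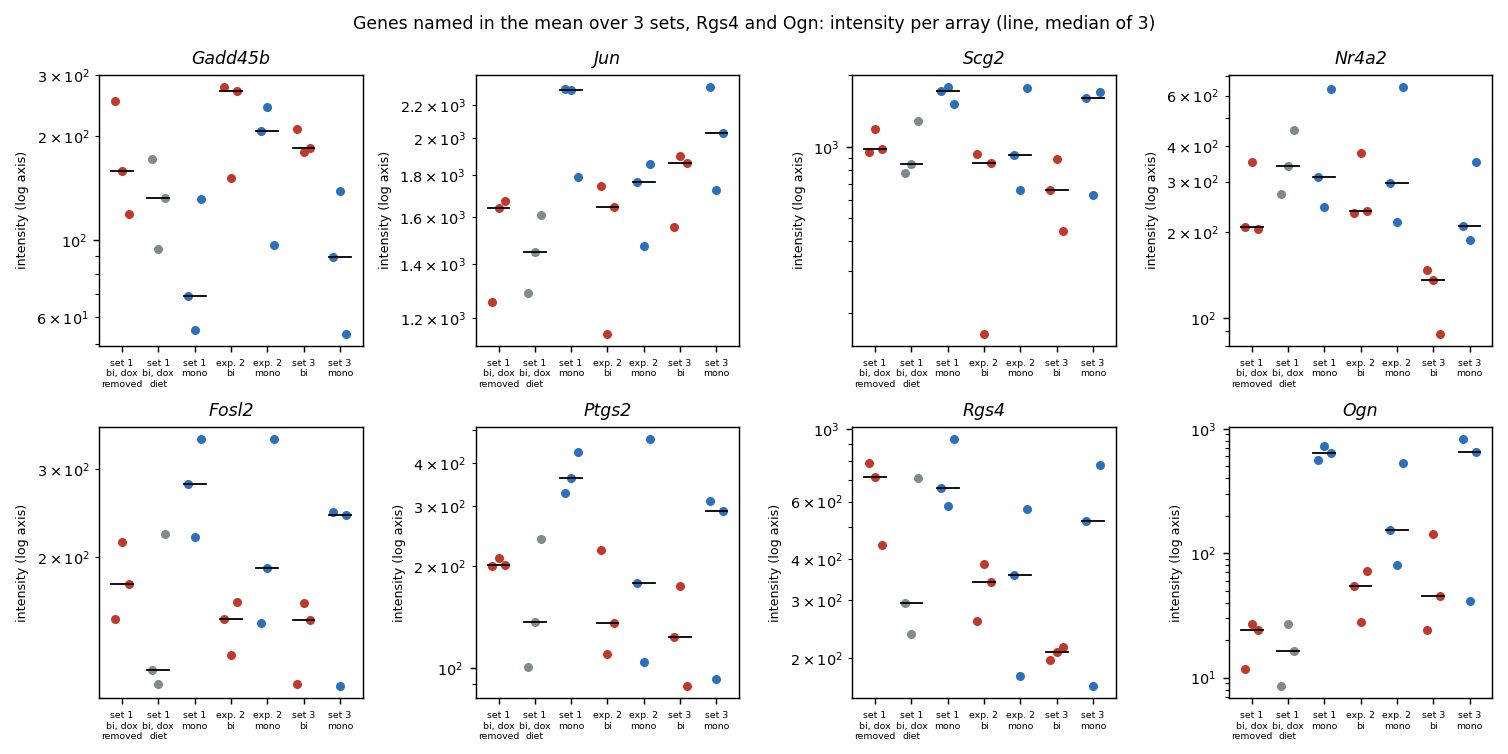
Intensity (log axis) per array of Gadd45b, Jun, Scg2, Nr4a2, Fosl2, Ptgs2, Rgs4 and Ogn in the 7 groups, with the median of each group as a line. In the monotransgenic groups of experiment 2 and set 3 the arrays low in Ogn (41.2 to 153) are also the lowest for Scg2, Ptgs2, Fosl2 and Rgs4 and the highest for Gadd45b.

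Whether a member's difference itself changed between sets was tested as a difference between differences. No member passed, and no gene at all did, in any of the 3 (0% of 12499 genes each). Unadjusted p under 0.05 was found for 3 members for experiment 2 against set 1 (7.91% of all genes), for none for set 3 against set 1 (3.5%) and for 2 for experiment 2 against set 3 (8.09%). Fosb was the member furthest apart, with a difference that was 1.36 log2 units larger in experiment 2 than in set 3 (adjusted p = 0.582).

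The upstream pathway was read from a list of 41 kinases, receptors, channels and transcription factors that drive these genes, of which 33 were tested and 8 were not analysed here. None passed in any comparison, and the medians lay between −0.18 (experiment 2) and 0.04 (set 3). Camk4, the nuclear calmodulin kinase that phosphorylates CREB, was 1.15 after removal minus diet, 1.16 after removal minus monotransgenic, −0.10 in experiment 2 and 1.47 in set 3, with a mean over the sets of 0.84 ± 0.26 (SE), adjusted p = 0.166. Rps6ka5, the kinase MSK1 that acts on CREB and histone H3, was 0.48 after removal minus monotransgenic, 0.78 in experiment 2 and 0.65 in set 3, with a mean of 0.64 ± 0.18 (SE), adjusted p = 0.127. In the monotransgenic arrays Camk4 was 241, 160.2 and 333 in set 1, 848, 865 and 391 in experiment 2 and 149, 820.2 and 224 in set 3, highest in the arrays of low Ogn. Rps6ka5 was 250, 267 and 203 in set 1, 414, 328 and 168 in experiment 2 and 222, 526 and 246 in set 3, again highest in those arrays.

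Of the same list, Elk1, a partner of serum response factor, was −0.52 after removal minus diet (adjusted p = 0.698), −0.38 minus monotransgenic and −0.26 over the sets. Map2k2 was 0.57 and Srf −0.26 in the first of these comparisons, and Elk4 0.34 and Hdac4 −0.38 in the second. Diet minus monotransgenic gave 0.47 for Camkk2, −0.34 for Hdac5, 0.30 for Ep300 and 0.11 for Camk2g. Experiment 2 gave −1.0 for Camk2b (adjusted p = 0.186; −0.45 over the sets), 0.29 for Braf and 0.45 for Creb1, the factor itself. Set 3 gave 0.35 for Crtc3 and −0.11 for Ppp3ca.

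A second list held 27 other activity-regulated genes that are slower or less specific, of which 26 were tested and none passed. Of the 26, 19 were higher after removal than on the diet (median 0.11) and 17 were lower on the diet than in monotransgenic arrays. Inhba, the activin A subunit induced by strong activity, stood at 535, 505 and 669.6 with doxycycline removed, 122, 134 and 107 with the diet and 127, 105 and 208 in monotransgenic arrays. The removed arrays lay above both other groups, by 2.08 ± 0.39 (SE), adjusted p = 0.0708 over the diet and by 1.88 ± 0.39 (SE), adjusted p = 0.0887 over monotransgenic. In experiment 2 it was 0.15 and in set 3 0.81, and the mean over the sets was 0.95 ± 0.23 (SE), adjusted p = 0.0761. Its monotransgenic arrays stood at 341, 429 and 186 in experiment 2 and 111, 384 and 141 in set 3, highest in the arrays of low Ogn. Penk, the enkephalin precursor, was −2.40 after removal minus monotransgenic (adjusted p = 0.0967), −2.76 on the diet minus monotransgenic (adjusted p = 0.116) and −1.53 over the sets (adjusted p = 0.0622). It stood at 89.6, 108 and 548 in the monotransgenic arrays of experiment 2 and 614, 123 and 484 in those of set 3, with the same arrays low as for Ogn.

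The differences of the other genes of lowest p in this list, and of Penk and Inhba in set 3, follow, and none passed. Removal minus diet gave 0.25 for Nrn1, 0.48 for Gadd45a and 0.31 for Spry2, and removal minus monotransgenic −0.44 for Tac1 and 0.45 for Errfi1. Diet minus monotransgenic gave −0.76 for Sorcs3, −0.25 for Nrn1 and 0.25 for Mcl1. Experiment 2 gave 0.54 for Zfp36, −0.72 for Baz1a, −0.65 for Synpo and 0.46 for Sgk1. Set 3 gave 0.40 for Frmd6, −1.28 for Penk, 0.81 for Inhba and 0.41 for Kcnj4. Over the sets Errfi1 was 0.36 and Synpo −0.40.

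In most groups a single array held the highest or lowest value of most rapid genes, and in the diet group none did. Of the 7 rapid genes past the filter (Fos, Fosb, Egr1, Arc, Npas4, Nr4a1 and Dusp1), 6 were lowest of their group in the third removed array of set 1, as were 22 of the 36 members (61.1%, against 33.2% of all genes). The second bitransgenic array of set 3 was the highest of its group for 6 of the 7 and for 23 of 36 (63.9%, against 27.8%). The third monotransgenic array of set 1 was the highest for 5 of 7 and 24 of 36 (66.7%, against 35.03%), and that of experiment 2 for 5 of 7 and 22 of 36 (61.1%, against 25.5%). In the monotransgenic arrays of set 3 the second was the highest for 5 of 7 but for 13 of 36 members (36.1%, against 36.2%). The second monotransgenic array of set 1 was the lowest for 5 of 7 and 19 of 36 (52.8%, against 32.8%). In set 3 the third monotransgenic array was the lowest for 5 of 7 and 14 of 36 (38.9%, against 30.1%). No array of the diet group or of the bitransgenic group of experiment 2 was the highest for more than 3 of the 7. No diet array was the lowest for more than 3, but the third bitransgenic array of experiment 2 was the lowest for 4 of 7 and 10 of 36 (27.8%, against 22.2%). Arc, which removes AMPA receptors from synapses, stood at 45.4, 68.7 and 11.2 in the removed arrays and 12.5, 42.6 and 39.6 in the bitransgenic arrays of set 3, a wide spread among arrays of the same kind.

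Nr4a1, another orphan nuclear receptor, stood at 99.7, 96.6 and 47.3 in the removed arrays and 79.3, 162 and 199 in the monotransgenic arrays of experiment 2, with a similar spread. The small differences of Arc, Nr4a1 and Fos, and some of Npas4, Egr1, Dusp1 and Fosb, changed sign when single arrays were left out or under other settings. These differences between arrays of 1 group enter the error of every comparison above, and with 3 arrays a group they limit its precision.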

How the data were processed

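The authors deposited a linear intensity per probe set, and a test of the file showed that every array has a mean of 150 once its lowest and highest 2% of probe sets are set aside. The authors' software was not given in the sources used here. Gene names came from the platform annotation: 34945 of 45101 probe sets had 1 symbol, 932 several, 9160 none, and 64 were controls. To the deposited intensities 16 was added before log2. Array medians (5.19 to 5.49) were then made equal by quantile normalization. Probe sets with a mean log2 of at least 4.90, the upper 60% (27022), were kept, and the brightest represented its gene. Intensities in the text are the deposited ones, and differences are of normalized log2 values.

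A single limma model (limma 3.58.1 and R 4.3.3, with version 1.17.8 of the data.table package) fitted the 7 group means to the 21 arrays with 14 residual degrees of freedom and a variance trend. Benjamini-Hochberg adjustment ran over the 12499 genes, tests were two-sided and the threshold was 0.05. Errors of differences are SE. The model was tested on simulated data. Replicate numbers follow the order of deposit.

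The members, roles and pathway lists were chosen with earlier results of these data known. Named are the 6 members of lowest unadjusted p per comparison, the rapid genes Fos, Fosb, Junb, Egr1, Arc, Npas4, Nr4a1 and Dusp1 throughout, and the 4 genes of lowest p per pathway list and comparison. Other genes (Rgs4, Plk2, Egr2, Ogn and Xist among them) and the comparison of monotransgenic groups between sets were chosen after their values were seen. Of the marker lists, genes of the meningeal list passed in some comparisons. None of the granule cell, CA1, CA3, endothelial, astrocyte, microglia, oligodendrocyte and inhibitory neuron lists did. Alternatives were other pseudocounts, filters, scalings, probe set rules and weights, fits within a set, no variance trend, a title prefix factor, a threshold of 0.1, and leaving out arrays. Promoters were searched in Python 3.11.15 with pandas 2.3.3, and figures drawn with matplotlib 3.10.9.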

Additional observations from a re-analysis of the deposited data

Results flagged for a closer look

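Fosb stood out because its groups lay apart in opposite directions in 2 sets. On normalized values every bitransgenic array was above every monotransgenic array in experiment 2, by 1.12 log2 units, and below in set 3, by 0.24. The difference between these differences was 1.36, and it did not pass (limma adjusted p = 0.582). On deposited intensities the arrays of set 3 overlapped, at 17.0, 7.59 and 20.7 in bitransgenic and 23.2, 21.5 and 18.9 in monotransgenic arrays, and the gene was dim in all of them.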

How the results depend on the processing

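No member among the 6 of lowest p in a comparison changed sign under any alternative. For removal against diet, 2 members (Bhlhe40 and Nptx2) passed with array weights. For removal against monotransgenic, 2 passed with array weights (Jun and Rgs2) and 4 with the arrays of the set alone (Egr1, Homer1, Rgs2 and Scg2). For diet against monotransgenic, 1 passed with array weights (Bhlhe40) and 1 with the set alone (Ptgs2). In experiment 2 the count ran from 0 to 1 when each array was left out, with Fosb passing without the first bitransgenic array. For the mean over 3 sets, 8 members passed with array weights (Dusp1, Fosl2, Gadd45b, Jun, Nr4a2, Ptgs2, Rgs2 and Scg2), and 1, Gadd45b, with a threshold of 0.1, without the 2 arrays of highest actin ratio and without experiment 2. When each array was left out that count ran from 0 to 3, with Gadd45b, Egr1 and Scg2 passing without the second monotransgenic array of set 3. For the monotransgenic arrays of experiment 2 against those of the other sets, chosen after seeing the data, 2 members passed, 1 with a pseudocount of 1, with the upper 40% of probe sets and with the title prefix factor, and 4 without the 2 arrays of highest actin ratio. That count ran from 1 to 4 when each array was left out, and it includes Npas4, which cleared the filter only through experiment 2. The median member difference in set 3 ran from −0.17 (without the second bitransgenic array) to −0.032 when each array was left out. Under the other settings it ran from −0.10 to −0.0062. The medians of removal against diet (0.14 to 0.30) and of diet against monotransgenic (−0.26 to −0.088) kept their sign, while the other 3 crossed 0 when arrays were left out: removal against monotransgenic (−0.16 to 0.088), experiment 2 (−0.13 to 0.058) and the mean over sets (−0.057 to 0.0045). Smaller differences of the rapid genes, none past the threshold, changed sign. With a pseudocount of 1, Arc was −0.0069 in removal minus diet and Arc was −0.040 in the mean over sets. With arrays centred on the 75th percentile, Egr1 was 0.13 in experiment 2 and Arc was −0.029 in the mean over sets. With array weights, Arc was −0.19 in experiment 2, Fos was 0.039 in set 3, Nr4a1 was 0.16 in set 3, Fosb was −0.0028 in the mean over sets and Arc was −0.14 in the mean over sets. Without experiment 2, Fos was −0.14 in the mean over sets, Fosb was −0.21 in the mean over sets and Arc was −0.12 in the mean over sets. On the deposited scale, Arc was −0.096 in the mean over sets. Without the 2 arrays of highest actin ratio, Arc was −0.071 in the mean over sets. Leaving out each array gave these ranges. In experiment 2 the difference was −0.0065 to 0.51 for Arc, −0.19 to 0.0067 for Egr1 and −0.53 to 0.020 for Nr4a1. In the mean over sets the difference was −0.097 to 0.18 for Arc, −0.15 to 0.28 for Fos and −0.22 to 0.0018 for Nr4a1. In removal minus diet the difference was −0.26 to 0.57 for Arc. In removal minus monotransgenic the difference was −0.42 to 0.41 for Arc, −0.17 to 0.89 for Fos, −0.044 to 0.29 for Npas4 and −0.39 to 0.26 for Nr4a1. In set 3 the difference was −0.34 to 0.12 for Arc, −0.017 to 0.69 for Dusp1, −0.039 to 0.46 for Npas4 and −0.22 to 0.21 for Nr4a1. In diet minus monotransgenic the difference was −0.61 to 0.043 for Nr4a1. Where these counts rise, the cause was not tested. No paired analysis was possible because the labels give the compared groups no shared replicate numbers, and the numbers used here follow the order of deposit. A title prefix shared by some arrays of set 3 was used as a factor instead. Dim members, Npas4, Fosb and Klf2 among them, lie near the filter, where signal over background limits what can be seen, and no detection calls were used.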

Other observations

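Some members outside the comparisons named above also stood apart in single arrays. Rgs2 reached 5661 in the second bitransgenic array of experiment 2, the array of highest actin ratio, where the other 5 arrays of that experiment ran from 2325 to 4000.1. In the same array Homer1 was 1296 and Plk2 211, the highest and the lowest values of these genes on any array.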
